A study of Mus musculus with 8 samples.

Results

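Nnt and 4 genes beside it on mouse chromosome 13, Tmem267, Paip1, Ccl28 and Fgf10, were followed over the 4 genotypes of an RNA sequencing study of mouse embryonic fibroblasts. These 5 of the 24972 genes in the deposited table were selected with their levels over the genotypes in view, so their own values and differences are given as a description, with no test. Nnt, Tmem267, Paip1 and Fgf10 were above the filter used here (a mean of at least 10 normalized counts over all libraries), which 13267 genes passed, and Ccl28 was below it.

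The cells were primary fibroblasts grown from day 14 mouse embryos, untreated, and harvested after 2 passages. The 4 genotypes, with 2 libraries each, were wild type (WT), Tfam+/-, Zbp1-/- and Tfam+/-Zbp1-/-. Tfam+/- cells carry 1 working copy of Tfam, which encodes the protein that packages and transcribes mitochondrial DNA. Zbp1-/- cells lack Zbp1, a sensor of left-handed nucleic acids. The genotypes share no other stated allele or agent. The sources used here give neither the substrain of the mice nor whether paired libraries of 1 genotype were from different embryos, so p-values measure only the spread between these libraries, which may be technical.

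Nnt encodes nicotinamide nucleotide transhydrogenase, an enzyme of the inner mitochondrial membrane. It uses the proton gradient to pass hydride from NADH to NADP+ and so supplies mitochondrial NADPH, which the glutathione and thioredoxin systems use to remove peroxides. C57BL/6J mice carry an Nnt allele that lacks a run of coding exons and makes no functional protein, whereas other C57BL/6 substrains carry the intact gene. Tmem267 encodes a membrane protein of little known function. Paip1 encodes a partner of the poly(A)-binding protein that promotes translation. Ccl28 encodes a chemokine of mucosal epithelium, and Fgf10 a growth factor that mesenchyme sends to epithelium in the budding lung and limb.

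The positions of these genes are those of RefSeq on GRCm38.p6, the assembly also called mm10. Fgf10 lies at chr13:118714699-118792573, Nnt at chr13:119335527-119409257, Paip1 at chr13:119428331-119460323, Tmem267 at chr13:119488086-119610459 and Ccl28 at chr13:119623819-119654359. Seen from the nearest edge of Nnt, Paip1 is 19.1 kb away, Tmem267 78.8 kb, Ccl28 214.6 kb and, on the other side, Fgf10 543 kb.

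The reference genome bears on what an Nnt value means, because mm10 was made from C57BL/6J. The GENCODE M21 model Nnt-202 on that assembly has 17 exons and 835 codons, and the join of its exons 7 and 8 is shown because it spans the site of the C57BL/6J deletion. It lies on the minus strand of chr13:119374760-119381690, where 6901 bases separate the exons. Small letters are the end of exon 7 and capitals the start of exon 8.
Nnt-202 junction of exons 7 and 8: cagctctgattccagGTGGTTTTCTGGTGA
Reads from exons that mm10 lacks have no place to align. One value per gene therefore cannot tell the C57BL/6J form of the transcript from the intact form, and which form each library carried was not tested.

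The 250 bases before the gene start are shown for Tmem267 and Fgf10. These are the selected genes besides Nnt that passed the filter and whose libraries without Zbp1 did not overlap those with it. The share of all genes with such a split is not given, here or below. It therefore cannot be read as particular to the genes named. RefSeq windows were given for 4 of the 5 genes. The Tmem267 window shown is chr13:119487836-119488085, plus strand, GRCm38.p6, with 58% G or C. The Fgf10 window is chr13:118714449-118714698, plus strand, with 61.2%. Capitals mark the GC box, searched as GGGCGG on both strands.
Tmem267 upstream window: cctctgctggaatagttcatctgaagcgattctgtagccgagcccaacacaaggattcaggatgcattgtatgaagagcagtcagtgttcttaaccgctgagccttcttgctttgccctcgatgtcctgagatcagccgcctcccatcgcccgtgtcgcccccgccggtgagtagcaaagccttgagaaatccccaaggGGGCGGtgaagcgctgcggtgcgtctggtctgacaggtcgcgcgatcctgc
Fgf10 upstream window: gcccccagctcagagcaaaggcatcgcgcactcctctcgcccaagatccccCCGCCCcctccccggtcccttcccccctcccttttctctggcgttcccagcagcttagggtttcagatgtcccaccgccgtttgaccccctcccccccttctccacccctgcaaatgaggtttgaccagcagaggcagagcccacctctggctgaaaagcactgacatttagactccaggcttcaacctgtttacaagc
Each window shown held 1 GC box, and the RefSeq window of Ccl28 also held 1. Tmem267 has another RefSeq window, chr13:119488223-119488472, plus strand, with 74.4% G or C and 3 GC boxes. The RefSeq windows of Paip1 held 1 and 4. Of all 32851 RefSeq windows of this length, 32.7% held at least 1 GC box. The CCAAT box (CCAAT), searched on both strands, was in 33.8% of all windows, the E-box (CACGTG) in 6.02% and the TATA box (TATAAA) in 12.4%, and no window of these genes held any of them.

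Library totals were 16752835 to 18303036 normalized counts. Tfam was at 628.7 and 610.1 normalized counts for WT, 277.8 and 364.7 for Tfam+/-, 675 and 470.9 for Zbp1-/- and 423.8 and 374.6 for Tfam+/-Zbp1-/-, lower in all 4 libraries with the heterozygous allele. Zbp1 was at 64.6 and 69.83 in Tfam+/- and at 0.8615 to 7.338 in the other 6 libraries, so the Zbp1-/- label could not be checked against the low WT values. In Tfam+/-Zbp1-/- it was at 0.8615 and 2.686, far below Tfam+/-. All 10 fibroblast markers were present, with a summed level of 629400 and 737100 in Zbp1-/- and 500500 to 605800 in the other genotypes. Leukocyte markers were also present. All 7 were above 0, and their sum was 4192 to 4233 in WT, 4800 to 5248 in Tfam+/-, 2365 to 2635 in Zbp1-/- and 2123 to 2158 in Tfam+/-Zbp1-/-. The epithelial sum was 185.6 to 492.8, with Esrp1 at 0 in every library. The 4 Schwann and neural crest markers summed to 485.4 and 569.6 in Zbp1-/- and to 144.7 to 251 in the other genotypes, so this sum was also highest where Nnt was highest, and its part in the results was not tested. Tfam+/- replicate 1 and Zbp1-/- replicate 2 stand apart from the other libraries across many genes, so results are also given from the 6 libraries without them, where a lone library is assumed to vary like the others.

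Nnt was highest in Zbp1-/- cells, intermediate in Tfam+/-Zbp1-/- cells and lowest in cells with intact Zbp1. Its normalized counts were 946.9 and 927.6 for WT, 807.7 and 971 for Tfam+/-, 2070 and 1961 for Zbp1-/- and 1396 and 1472 for Tfam+/-Zbp1-/-. The WT and Tfam+/- libraries overlapped, both Tfam+/-Zbp1-/- libraries were above them, and both Zbp1-/- libraries were above all others. The means were 937.2 ± 13.62 (SD, n = 2) in WT, 889.3 ± 115.4 in Tfam+/-, 2015 ± 77.42 in Zbp1-/- and 1434 ± 53.92 in Tfam+/-Zbp1-/-. WT and Tfam+/- thus did not differ beyond their spread.

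Differences are on the scale of log2(normalized count + 1), with the SE from limma. Zbp1-/- against WT gave 1.10 ± 0.12 for Nnt, a 2.15-fold higher level. Tfam+/-Zbp1-/- against Tfam+/- gave 0.69 ± 0.12, or 1.62-fold higher. These 2 comparisons share no library. The interaction, the second of these differences minus the first, was -0.41 ± 0.17. Nnt thus differed by less between genotypes with and without Zbp1 where Tfam was also heterozygous, and with Zbp1 lost it was lower by 0.49 in Tfam+/-Zbp1-/- than in Zbp1-/- (log2 difference -0.49 ± 0.12). In the 6 libraries the values were 1.14, 0.56 and -0.58 for these comparisons and the interaction.

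Tmem267 ran the other way. Its normalized counts were 263 and 257.4 in the WT pair, 383.1 and 355.5 in the Tfam+/- pair, 42.89 and 79.87 in the Zbp1-/- pair and 156.2 and 152.2 in the Tfam+/-Zbp1-/- pair. No genotype overlapped another, with Tfam+/- highest and Zbp1-/- lowest. The means were 369.3 ± 19.49 (SD, n = 2) in Tfam+/-, 260.2 ± 3.959 in WT, 154.2 ± 2.854 in Tfam+/-Zbp1-/- and 61.38 ± 26.15 in Zbp1-/-.

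The log2 difference of Tmem267 was -2.13 ± 0.27 in Zbp1-/- against WT, a 4.38-fold lower level, and -1.25 ± 0.27 in Tfam+/-Zbp1-/- against Tfam+/-, or 2.38-fold lower. It was 0.50 ± 0.27 in Tfam+/- against WT and 1.38 ± 0.27 in Tfam+/-Zbp1-/- against Zbp1-/-. The interaction was 0.88 ± 0.38, and it ranged from 0.44 to 1.32 when 1 library was left out. The 2 Zbp1-/- libraries differed most within a genotype, and in the 6 libraries the difference of Zbp1-/- from WT was -2.57 and the interaction 1.37. The leukocyte marker sum had the same order of genotypes from Tfam+/- to WT, but its lowest genotype was Tfam+/-Zbp1-/-, whereas that of Tmem267 was Zbp1-/-. Its part in these values was not tested. In bulk RNA, fewer cells of a type and less RNA per cell cannot be told apart.

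**Figure D1:**
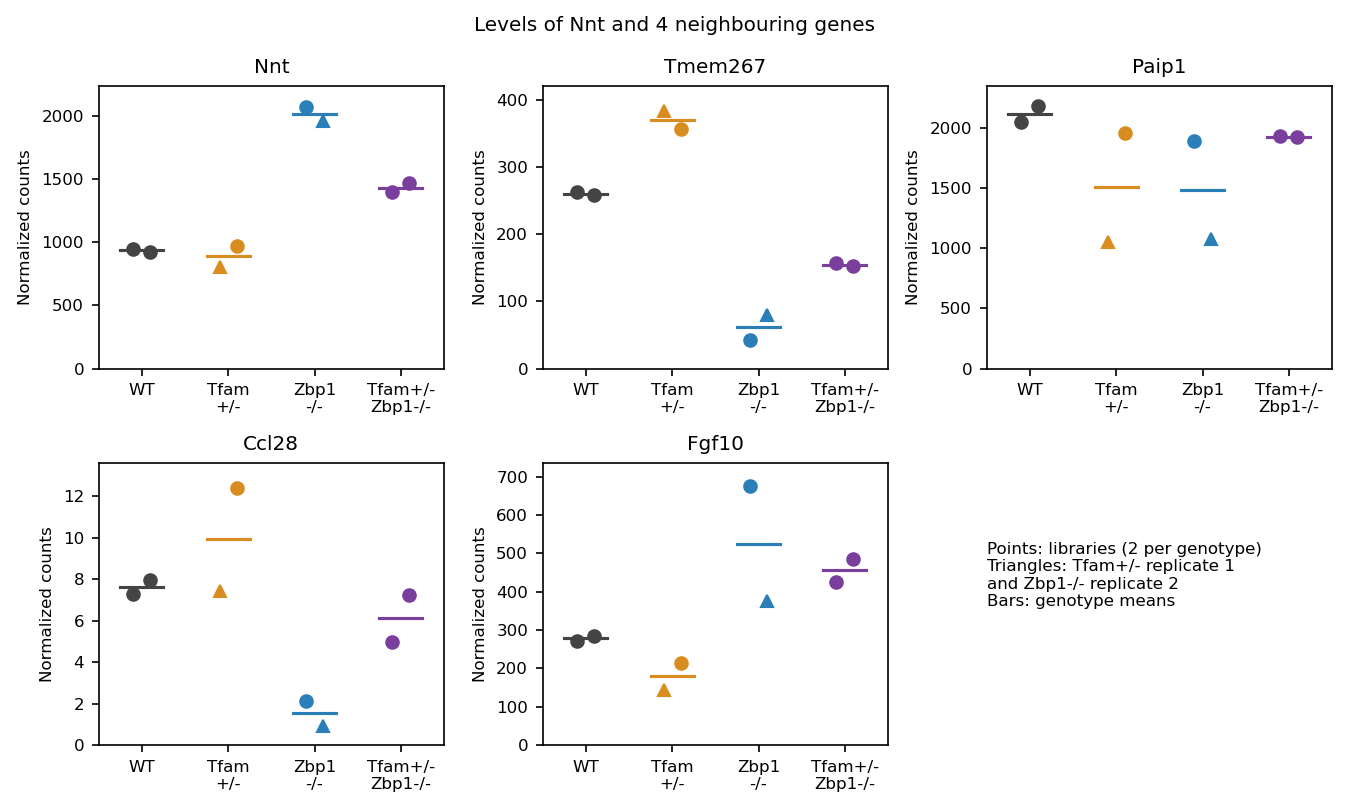
Normalized counts (y axes, each from 0) of Nnt, Tmem267, Paip1, Ccl28 and Fgf10 in the 2 libraries of each genotype (x axes), with bars at the genotype means and triangles for Tfam+/- replicate 1 and Zbp1-/- replicate 2. Nnt is highest and Tmem267 lowest in Zbp1-/-, while the spread of Paip1 lies within the Tfam+/- and Zbp1-/- pairs.

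Nnt divided by Tmem267 within a library sets out the pair together. The ratio is of normalized counts, not corrected for length, so only its differences between libraries can be read. It was 3.60 and 3.60 in WT and 48.3 and 24.5 in Zbp1-/-, against 2.11 and 2.73 in Tfam+/- alone and 8.93 and 9.67 in Tfam+/-Zbp1-/-. The order of the ratio was the same in every pair of libraries from different genotypes: Tfam+/- below WT, WT below Tfam+/-Zbp1-/-, and Zbp1-/- highest.

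**Figure D2:**
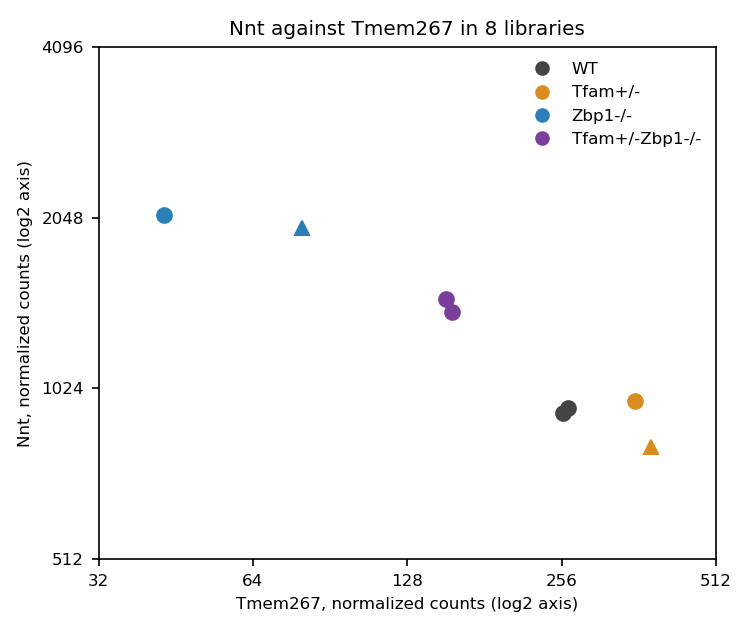
Normalized counts of Nnt (y axis, log2) against Tmem267 (x axis, log2), 1 point per library, coloured by genotype, with triangles for Tfam+/- replicate 1 and Zbp1-/- replicate 2. Points run from high Tmem267 with low Nnt in Tfam+/- and WT to low Tmem267 with high Nnt in Zbp1-/-, where Tmem267 was 42.89 and 79.87.

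Over the 8 libraries, Pearson's r of the log2 values was -0.96 between Nnt and Tmem267. It is a description of 8 points that share 4 genotypes. Both genes were selected with these levels in view, so the place of Tmem267 below is no test. The genes most like Nnt by this measure were Dock1 (r 0.991), Aff3 (0.990), Egfl6 (0.989), Arel1 (0.987) and Col12a1 (0.987). Egfl6, which encodes a matrix protein, had the widest range of these on the log2 scale, from 65.5 to 398.9 normalized counts. The most opposite genes were Itgal (-0.971), which encodes an integrin chain of leukocytes, Pus7 (-0.963) and Tmem267 (-0.959). Tmem267 was most like Gm12191 (0.980), Lce1h (0.979), Fkbp5 (0.969), Pus7 (0.969) and Thyn1 (0.963), and most opposite to Lpin1 (-0.988), Npc1 (-0.983) and Fbxl20 (-0.982).

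Paip1, the nearest gene to Nnt among those selected, did not follow it. Its normalized counts were 2055 and 2185 for WT, 1058 and 1966 for Tfam+/-, 1897 and 1076 for Zbp1-/- and 1937 and 1928 for Tfam+/-Zbp1-/-. The low values were those of the 2 libraries that stand apart, and the other 6 lay between 1897 and 2185. Zbp1-/- against WT was -0.57 ± 0.34 and Tfam+/-Zbp1-/- against Tfam+/- 0.42 ± 0.34. Without those 2 libraries the values were -0.16 and -0.02. Pearson's r with Nnt was -0.10.

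Fgf10 was higher in every library without Zbp1 than in every library with it. Its normalized counts were 271.3 and 285.8 in the WT pair, 144.4 and 215 in the Tfam+/- pair, 675.7 and 375.1 in the Zbp1-/- pair and 425.8 and 486.3 in the Tfam+/-Zbp1-/- pair. The Tfam+/- libraries were below WT, and the Zbp1-/- pair spanned the Tfam+/-Zbp1-/- pair. The log2 difference was 0.85 ± 0.30 in Zbp1-/- against WT, 1.36 ± 0.30 in Tfam+/-Zbp1-/- against Tfam+/- and -0.66 ± 0.30 in Tfam+/- against WT, and the interaction was 0.51 ± 0.43. In the 6 libraries the interaction was -0.20, so its sign rested on the 2 libraries that stand apart, while the first 3 values were 1.28, 1.08 and -0.37. The difference from WT in Zbp1-/- rested much on 1 library, at 0.43 without Zbp1-/- replicate 1 and 1.28 without replicate 2. Fgf10 thus did not stay level while Nnt and Tmem267 moved.

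Ccl28 was barely detected. Its normalized counts were 7.305 and 7.974 in WT and 2.137 and 0.9102 in Zbp1-/-, against 7.444 and 12.4 in Tfam+/- alone and 4.974 and 7.234 in Tfam+/-Zbp1-/-. Both Zbp1-/- libraries were below the other 6. The log2 difference of Zbp1-/- from WT was -1.82 ± 0.40, and it moved between -2.36 and -0.96 over the alternatives, which include other pseudocounts.

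The other genes around Nnt were not selected on their levels and were tested. The table held 20 of them within 2 Mb, of which 6 were tested, 9 were at 0 in every library and 5 had a mean under 10. The table's genes end 907.6 kb beyond Nnt on the side of Tmem267. limma with Benjamini-Hochberg adjustment over all 13267 genes called none of the 6 at an adjusted p under 0.05 in any of the 6 comparisons. At an unadjusted p under 0.05 it gave 2 in Tfam+/-Zbp1-/- against Tfam+/-, where 20.8% of all genes tested had such a p, and 0 in each of the others. The share of all genes with an unadjusted p under 0.05 was 8.74% in Tfam+/- against WT, 19.7% in Zbp1-/- against WT, 12.6% in Tfam+/-Zbp1-/- against WT, 12.3% in Tfam+/-Zbp1-/- against Zbp1-/- and 16% for the interaction. Over all genes tested, the share called was 0.731% in Tfam+/- against WT, 1.06% in Zbp1-/- against WT, 1.38% in Tfam+/-Zbp1-/- against WT, 5.64% in Tfam+/-Zbp1-/- against Tfam+/-, 0.415% in Tfam+/-Zbp1-/- against Zbp1-/- and 0.663% for the interaction. With shares of this size, 0 of 6 is near the background and shows nothing particular to the region. The fit of 6 libraries called far more genes overall: 34.3% of all genes tested in Zbp1-/- against WT, 43.6% in Tfam+/-Zbp1-/- against Tfam+/-, 15.4% in Tfam+/- against WT, 44.8% in Tfam+/-Zbp1-/- against WT, 23.4% in Tfam+/-Zbp1-/- against Zbp1-/- and 19.1% for the interaction. It called 2 of the 6 neighbours in Zbp1-/- against WT and 1 in Tfam+/-Zbp1-/- against Tfam+/-, no more than these shares.

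Among these neighbours, 4833420G17Rik, between Paip1 and Tmem267, was at 457 and 419.6 for WT, 371.8 and 421.1 for Tfam+/-, 504.2 and 389.8 for Zbp1-/- and 478 and 458.3 for Tfam+/-Zbp1-/-. The Zbp1-/- pair spanned the WT pair, and the log2 difference of Zbp1-/- from WT was 0.02 (limma, adjusted p 0.95). Hmgcs1, which encodes an enzyme of cholesterol synthesis, was at 7909 and 8105 in the WT pair, 4433 and 6891 in the Tfam+/- pair, 9327 and 5672 in the Zbp1-/- pair and 8806 and 9092 in the Tfam+/-Zbp1-/- pair. Its difference was -0.14 in Zbp1-/- against WT (limma, adjusted p 0.76). In Tfam+/-Zbp1-/- against Tfam+/- it was 0.69 (limma, adjusted p 0.21). The first of these turned, in the 6 libraries, to 0.22 and the second fell to 0.38, and both were called there. Leaving out 1 library moved the second between 0.38 (without Tfam+/- replicate 1) and 1.01 (without Tfam+/- replicate 2), not called in either case. Zfp131, which encodes a zinc finger protein, was at 833.2 and 782.1 in the 2 libraries that stand apart and at 1411 to 1537 in the others.

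Mrps30, which encodes a protein of the mitochondrial ribosome, was at 451.1 to 553.6 in all 8 libraries, with a log2 difference of -0.09 in Zbp1-/- against WT (limma, adjusted p 0.61). Nim1k, which encodes a kinase, was at 36.34 to 63.09, with a difference of 0.07 in the same comparison (limma, adjusted p 0.85). The median difference of the 6 genes was -0.04 in Zbp1-/- against WT and 0.50 in Tfam+/-Zbp1-/- against Tfam+/-, beside 0.11 and 0.14 over all genes tested.

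The non-coding gene 3110070M22Rik runs from the opposite strand across the start of Tmem267, and the gene models overlap by 299 bases. Its normalized counts were 8.661 and 9.214 in WT and 0 and 5.561 in Zbp1-/-, against 9.312 and 16.47 in Tfam+/- alone and 1.853 and 4.795 in Tfam+/-Zbp1-/-. All 4 libraries without Zbp1 were below the 4 with it. These levels are near 0 and under the filter, and the share of all genes with such a split is not given. Since the sources used here do not say whether counting used strand, reads in the overlap cannot be told apart between the 2 genes. The other low neighbours, Gm10732, Gm21188, Gm20767 and BC147527, were at 3.035 or below in every library.

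From 2 to 10 Mb, 24 of 50 table genes were tested, and limma called 1 (4.17%), in Tfam+/-Zbp1-/- against Tfam+/-, beside 5.64% of all genes tested. The called gene was Plk2, which encodes a kinase, with a log2 difference of -0.58 ± 0.09 (limma, adjusted p 0.016). The call was lost without either WT or either Tfam+/-Zbp1-/- library, with values between -0.63 and -0.53, and also with only the genotypes compared and with the replicate number as a block. In Zbp1-/- against WT none of the 24 was called, and limma gave 3 an unadjusted p under 0.05, beside 19.7% of all genes. It gave 11 of the 24 such a p in Tfam+/-Zbp1-/- against Tfam+/-, beside 20.8%, and 6 in Tfam+/- against WT, beside 8.74%. Both are larger shares than over all genes, and the excess was not tested. In Tfam+/-Zbp1-/- against WT, Tfam+/-Zbp1-/- against Zbp1-/- and the interaction there were 2, 3 and 2, beside 12.6%, 12.3% and 16%. The 24 genes had medians of -0.09 in Zbp1-/- against WT (all genes 0.11) and 0.27 in Tfam+/-Zbp1-/- against Tfam+/- (all genes 0.14).

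**Figure D3:**
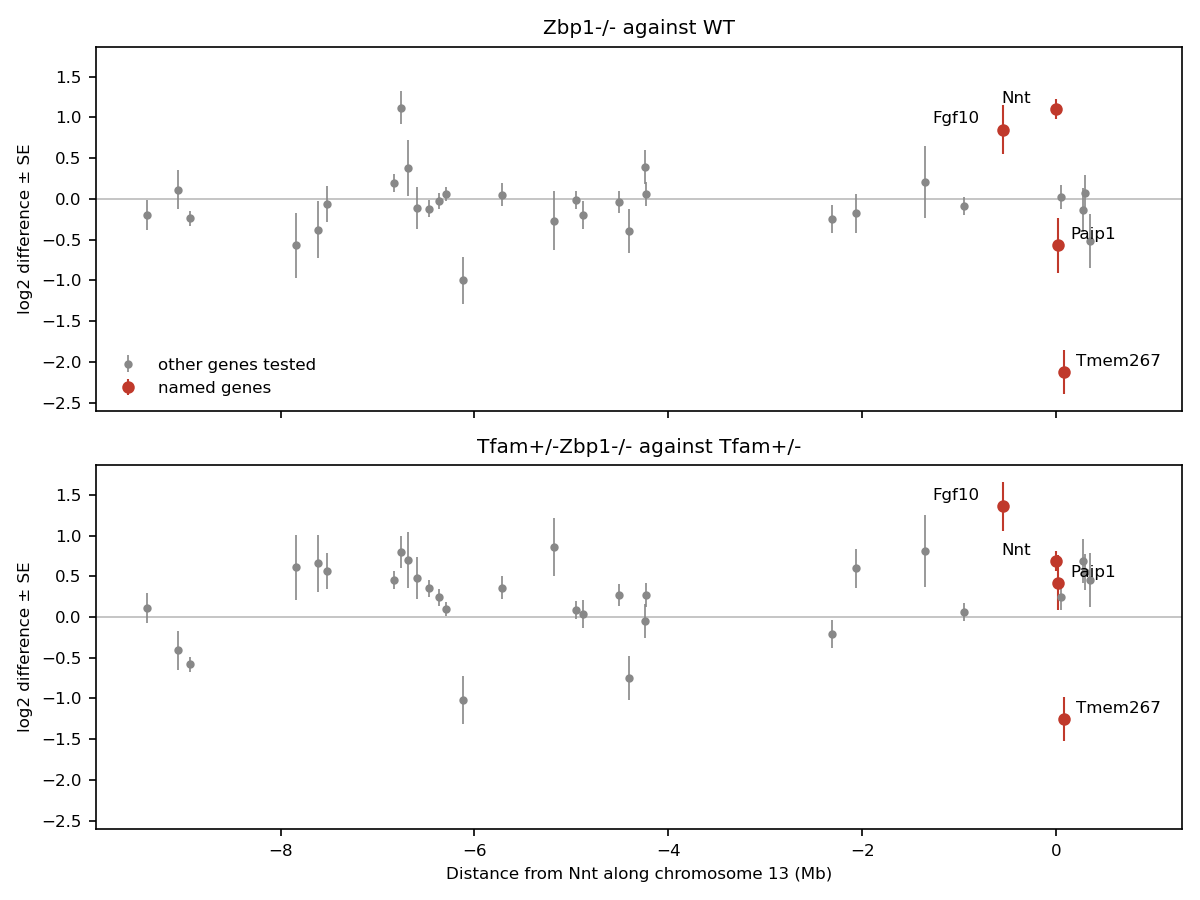
Difference in log2(normalized count + 1) with its SE (y axis) against distance from Nnt in Mb (x axis) for every tested gene within 10 Mb, in Zbp1-/- against WT (top) and Tfam+/-Zbp1-/- against Tfam+/- (bottom), with the selected genes in red. Tmem267 is the lowest point in both panels, at -2.13 and -1.25.

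The partners of these genes were then examined through lists of related function. The lists were chosen with earlier results of these data known, so calls within them are not independent of that choice. For Nnt, the list held 28 genes that make or use NADPH, mainly in mitochondria, and all were tested. limma called none in any of the 6 comparisons, with 1 to 4 at an unadjusted p under 0.05 in each, beside 8.74% to 20.8% of all genes. The median log2 difference was 0.02 in Zbp1-/- against WT and 0.10 in Tfam+/-Zbp1-/- against Tfam+/-, beside 0.11 and 0.14 over all genes. The fit of 6 libraries called 12 and 13 of the 28 in these comparisons, beside 34.3% and 43.6% of all genes.

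Idh2, which encodes the NADP-dependent isocitrate dehydrogenase of mitochondria, was at 1920 and 1890 normalized counts for WT, 2290 and 1820 for Tfam+/-, 2250 and 2810 for Zbp1-/- and 2700 and 2780 for Tfam+/-Zbp1-/-. Its log2 difference in Zbp1-/- against WT was 0.40 ± 0.15 (limma, adjusted p 0.23). Me3, a mitochondrial malic enzyme, was at 23.2 to 29.4 in the 4 libraries with Zbp1 and at 44.9 to 55.6 in the 4 without it, with 0.94 ± 0.21 (limma, adjusted p 0.099). Gsr, glutathione reductase, was at 714 and 707 in WT and at 576 and 546 in Zbp1-/-, with -0.34 ± 0.11 (limma, adjusted p 0.17). Sod2, the superoxide dismutase of mitochondria, was at 725 to 818 in all 8 libraries. None of these passed the threshold.

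For Paip1, a list of 20 genes was drawn up for the poly(A)-binding protein and cap-binding machinery, although Lars in it encodes leucyl-tRNA synthetase and is no part of it. All were tested, and limma called none in any of the 6 comparisons, with at most 3 at an unadjusted p under 0.05. The fit of 6 libraries called 6 to 11 of the 20 per comparison, beside 15.4% to 44.8% of all genes. Pabpc1, the main cytoplasmic poly(A)-binding protein gene, was at 14400 to 20300 normalized counts, and its difference in Zbp1-/- against WT was 0.01 (limma, adjusted p 0.97). Paip2, which encodes a related inhibitor, was at 1300 to 2060.

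For Ccl28, the genes of its receptors were at or near 0. Ccr10 was at 0 in 6 libraries and at 0.948 and 1.96 in Tfam+/-Zbp1-/-, and Ccr3 was at 4.37 or below. Ccl27a, which encodes a related chemokine, was the 1 tested gene of this list of 3, at 76.4 to 122, and limma called it in no comparison (0 at an unadjusted p under 0.05).

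For Fgf10, 20 of 24 genes of its signalling were tested. limma called 1 higher in Zbp1-/- against WT, Bmp4 (5%, beside 1.06% of all genes tested). In Tfam+/-Zbp1-/- against WT it called 2 higher, Bmp4 and Tbx4 (10%, beside 1.38%). In Tfam+/-Zbp1-/- against Tfam+/- it called 4 higher, Fgfr2, Bmp4, Tbx4 and Tbx5 (20%, beside 5.64%). In Tfam+/-Zbp1-/- against Zbp1-/- it called 1 lower, Spry1 (5%, beside 0.415%). In the same order, limma gave 7, 9, 11 and 6 of the 20 an unadjusted p under 0.05. Each share was above that of all genes, at 19.7%, 12.6%, 20.8% and 12.3%. None was called in Tfam+/- against WT or for the interaction, although 5 and 7 had such a p, beside 8.74% and 16%. The list was chosen with earlier results of these data known, so these shares are a description. The list's median was 0.11 in Zbp1-/- against WT and 0.24 in Tfam+/-Zbp1-/- against Tfam+/-, beside 0.11 and 0.14 over all genes. The fit of 6 libraries called 11 and 14 of the 20 in these comparisons, beside 34.3% and 43.6% of all genes.

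Fgfr2, whose epithelial isoform is the main receptor of FGF10, was at 978 and 1010 for WT, 621 and 676 for Tfam+/-, 1350 and 1260 for Zbp1-/- and 1410 and 1500 for Tfam+/-Zbp1-/-. The 4 libraries without Zbp1 were above the 4 with it. Its log2 difference was 1.17 ± 0.11 in Tfam+/-Zbp1-/- against Tfam+/- (limma, adjusted p 0.0033) and 0.39 ± 0.11 in Zbp1-/- against WT (adjusted p 0.15). Leaving out either Tfam+/-Zbp1-/- library ended the first call (1.10 to 1.23 over the libraries left out). Gene-level values do not separate the isoforms.

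Bmp4, a growth factor gene expressed where FGF10 acts in the lung, was at 579 and 556 in the WT pair, 377 and 358 in the Tfam+/- pair, 1100 and 1110 in the Zbp1-/- pair and 1080 and 1190 in the Tfam+/-Zbp1-/- pair. It rose by 0.96 ± 0.11 in Zbp1-/- against WT (limma, adjusted p 0.018) and by a larger 1.63 in Tfam+/-Zbp1-/- against Tfam+/- (adjusted p 0.0017). The first call was lost without any 1 of the WT, Zbp1-/- or Tfam+/-Zbp1-/- libraries (0.93 to 0.99), and the second without Tfam+/-Zbp1-/- replicate 2 (1.55 to 1.70 over the libraries left out). The first was also lost with only the genotypes compared and with the replicate number as a block. The call of 1.00 in Tfam+/-Zbp1-/- against WT (limma, adjusted p 0.017) was lost without either WT or either Tfam+/-Zbp1-/- library (0.93 to 1.07) and with that block.

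Tbx4 and Tbx5 encode T-box factors that act upstream of Fgf10 in lung and limb. Tbx4 was at 111 and 129 in WT and 261 and 209 in Zbp1-/-, against 105 and 95.4 in Tfam+/- alone and 400 and 423 in Tfam+/-Zbp1-/-. It rose by 2.02 in Tfam+/-Zbp1-/- against Tfam+/- (limma, adjusted p 0.0025) and by 1.77 ± 0.16 against WT (adjusted p 0.010). Both calls were lost without either Tfam+/-Zbp1-/- library, and the second also without either WT library and with the replicate block (1.95 to 2.10 and 1.67 to 1.87 over the libraries left out). Tbx5 was at 75.9 and 87 in Tfam+/- and at 157 and 178 in Tfam+/-Zbp1-/-, a rise of 1.03 ± 0.17 (limma, adjusted p 0.018) that was lost without Tfam+/- replicate 2 or either Tfam+/-Zbp1-/- library (0.93 to 1.13), with only the genotypes compared and with the replicate block. Both genes are also among the 5 lung and limb mesenchyme markers. Their sum, nearly all of it Prrx1, was 5937 to 15970, with Prrx1 itself at 11400 and 11170 for WT, 5684 and 10240 for Tfam+/-, 13450 and 7057 for Zbp1-/- and 15160 and 15320 for Tfam+/-Zbp1-/-. Foxf1 did not follow Tbx4, at 48.76 and 66.36 for WT and 52.81 and 42.94 for Tfam+/-Zbp1-/-, and Nkx2-1 was at 0 in every library. The part of cell makeup in these values was not tested.

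No feedback inhibitor of the pathway was called higher with all 8 libraries in the fit. Spry1, an inhibitor of receptor signalling, was at 1420 and 1270 in Zbp1-/- and at 779 and 743 in Tfam+/-Zbp1-/-, and fell by 0.82 on the log2 scale (limma, adjusted p 0.044). That call was lost without any 1 of the WT, Zbp1-/- or Tfam+/-Zbp1-/- libraries (-0.90 to -0.74), and also with no filter, no trend, only the genotypes compared or the replicate number as a block. In Zbp1-/- against WT, Spry1 differed by 0.41 (limma, adjusted p 0.13), and by 0.49 in the 6 libraries. It was called there, in a fit with a lone Zbp1-/- library that called far more genes overall. Dusp6, a phosphatase gene induced by FGF signals, was at 490 to 681 in all 8 libraries, and was not called in any comparison. Etv5, a target transcription factor gene, was at 660 to 740 and was not called either. Of the related genes, Etv4 was at 712 and 529 in Tfam+/- and at 389 and 365 in Tfam+/-Zbp1-/-. It differed by -0.70 there (limma, adjusted p 0.071), and Etv1 by 0.58 the other way (limma, adjusted p 0.30). Isl1, Shh, Fgf3 and Fgf22 were the 4 genes below the filter.

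Because Nnt differs between C57BL/6 lines, 9 further genes reported to differ between such lines in sequence or expression were examined, of which 6 were tested. This list too was chosen with earlier results of these data known. limma called Wdfy1, which encodes an endosomal protein, higher in Zbp1-/- than in WT and lower in Tfam+/-Zbp1-/- than in Zbp1-/-. Each is 1 of the 6 tested (16.7%), beside 1.06% and 0.415% of all genes tested. No other gene of the list was called in any comparison. Wdfy1 was at 411 and 498 for WT, 351 and 417 for Tfam+/-, 1700 and 1320 for Zbp1-/- and 424 and 511 for Tfam+/-Zbp1-/-. Zbp1-/- alone was high, and the WT pair overlapped both the Tfam+/- and the Tfam+/-Zbp1-/- pair. The differences were 1.73 ± 0.19 (limma, adjusted p 0.018) and -1.69 (adjusted p 0.035). Both calls were lost without any 1 of the WT, Zbp1-/- or Tfam+/-Zbp1-/- libraries (1.54 to 1.91 and -1.87 to -1.50), with only the genotypes compared and with the replicate block. In Tfam+/-Zbp1-/- against Tfam+/-, where Nnt differed by 0.69, Wdfy1 differed by 0.28 (limma, adjusted p 0.41). The Schwann and neural crest marker sum was likewise high in Zbp1-/- alone, and its part in the Wdfy1 values was not tested.

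Ide, which encodes an insulin-degrading protease, was at 2490 and 2530 in the WT pair, 2290 and 3230 in the Tfam+/- pair, 1540 and 1080 in the Zbp1-/- pair and 1770 and 1700 in the Tfam+/-Zbp1-/- pair. The 4 libraries without Zbp1 were below the 4 with it. The difference of -0.96 ± 0.21 in Zbp1-/- against WT missed the threshold (limma, adjusted p 0.10), as did -0.65 in Tfam+/-Zbp1-/- against Tfam+/- (adjusted p 0.15). In the 6 libraries, where Zbp1-/- and Tfam+/- have a lone library each, these were -0.71 and -0.90.

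Cyfip2 was at 105 to 154 in all 8 libraries and was not called. Entpd4 was at 36.8, 172 and 101 in Tfam+/- replicate 2, Zbp1-/- replicate 2 and Tfam+/-Zbp1-/- replicate 2 and at 0 in the other 5 libraries. Its near-identical copy Entpd4b was at 898 to 1210, the sum of both was 987.6 to 1207, and the split between them is uncertain. Crb1 was at 0 in every library, Nlrp12 at 1.10 or below and Mmrn1 at 4.27 or below. Gene levels do not show which alleles a library carried.

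**Figure D4:**
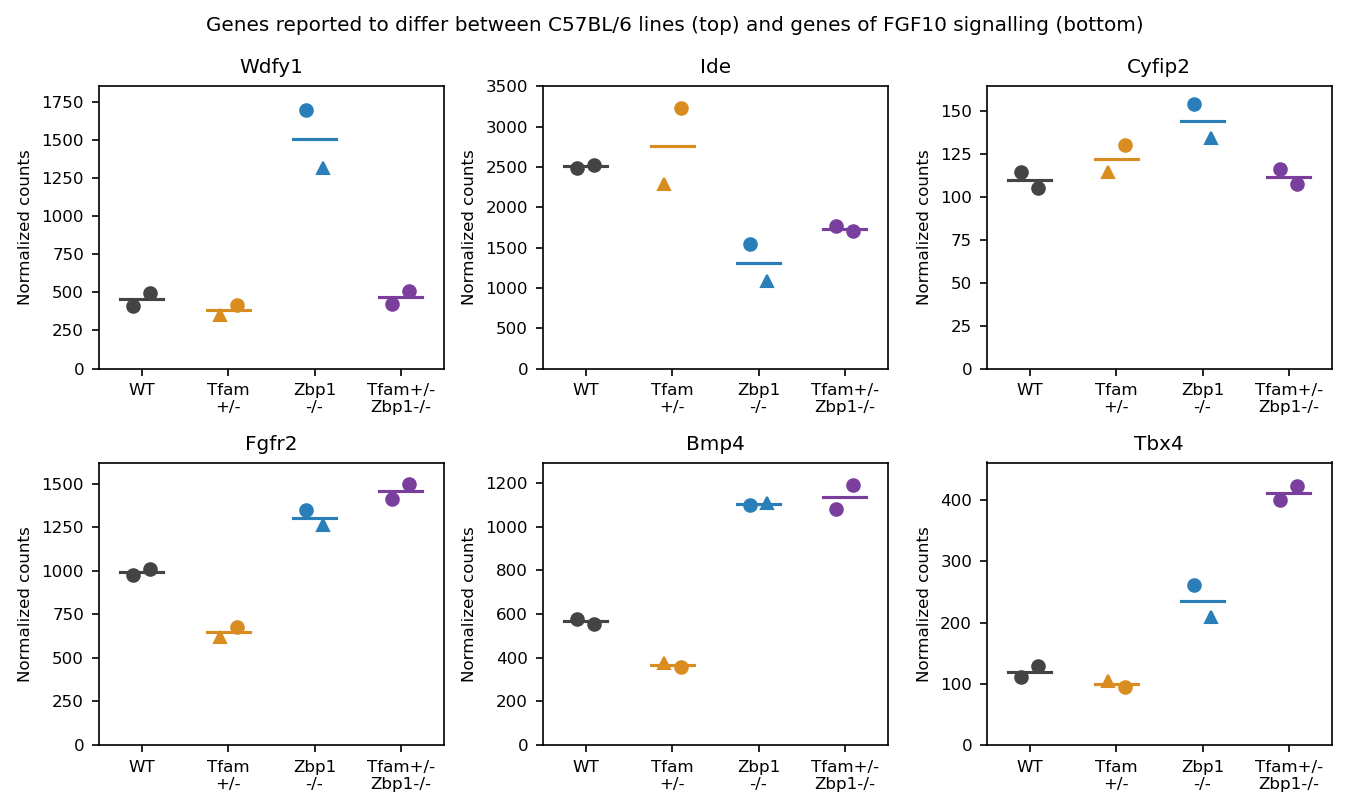
Normalized counts (y axes, each from 0) in the 2 libraries of each genotype (x axes) for Wdfy1, Ide and Cyfip2 (top) and Fgfr2, Bmp4 and Tbx4 (bottom), with bars at the genotype means and triangles for Tfam+/- replicate 1 and Zbp1-/- replicate 2. Wdfy1 is high in Zbp1-/- alone, at 1700 and 1320, while Ide is low in all 4 libraries without Zbp1.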

How the data were processed

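Total RNA of 8 fibroblast libraries was sequenced. The deposited values are normalized counts, that is a scaled signal for each gene that need not be whole. The authors aligned reads to mm10 with STAR (2.6.1a, with Salmon also listed), per the submitters' processing notes. The sources used here do not give how reads were counted or scaled, or whether strand was used. Genes with a mean of at least 10 were tested with limma 3.58.1 (R 4.3.3), with trend, on log2(value + 1), in 1 fit of all 8 libraries and 4 genotype means, with 4 residual and 2.77 prior degrees of freedom and Benjamini-Hochberg adjustment, called under 0.05. Precision is limited by 2 libraries per genotype. Whole reads were not recovered, so depth in reads is unknown and count models were not run. The fit was checked on simulated data without libraries that stand apart, so that check does not bear on the effect of such libraries. Positions are from RefSeq, matched by symbol for 24407 genes (97.7%).

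The named genes are the 5 selected ones, all table genes within 2 Mb of Nnt, Tfam and Zbp1, the genes most like or opposite to Nnt and Tmem267 by Pearson's r, and from each list the called genes and up to 4 others. Of the genes this rule takes, 2 are counted but not reported here by name. The members and lists were chosen with earlier results of these data known. Alternatives were pseudocounts of 0.1 and 5, no filter or a mean of 50, a trimmed mean of M-values scaling, no trend, fits of the compared genotypes alone, a replicate block, leaving out each library, a term for 2 libraries and the 6 others.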

Additional observations from a re-analysis of the deposited data

How the results depend on the processing

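Nnt stayed higher and Tmem267 lower in Zbp1-/- against WT and in Tfam+/-Zbp1-/- against Tfam+/- under all 18 alternatives. Both genes were selected on these levels, so this is a description. Changes of filter, trend, block or genotypes fitted leave a difference between genotype means as it is, so those alternatives could not alter it. The same holds for leaving out a library of a genotype that is not compared. A trimmed mean of M-values scaling moved the median of all genes by 0.11 and 0.12 in these comparisons, and the Nnt difference to 0.99 and 0.57. In the 6 libraries without Tfam+/- replicate 1 and Zbp1-/- replicate 2, Nnt was at 0.56 in Tfam+/-Zbp1-/- against Tfam+/- and Tmem267 at -2.57 in Zbp1-/- against WT. Leaving out 1 library gave 0.56 to 0.83 and -2.57 to -1.69. Genes called within 2 Mb numbered 2 in Zbp1-/- against WT and 1 in Tfam+/-Zbp1-/- against Tfam+/-, both in the 6 libraries and with the term shared by the 2 others, and at most 2 in the other comparisons. Over all 13267 genes these fits called 4548 and 5779 (6 libraries) and 4717 and 6049 (shared term) in the same comparisons, against 141 and 748. Hmgcs1 turned to 0.22 and 0.20 in Zbp1-/- against WT in these fits, and the interaction of Ide to -0.19 in both. The cause was not tested. The replicate numbers do not pair the libraries (r of deviations from -0.70 to 0.06). With the replicate block, which cannot move these differences, Nnt and Tmem267 in Zbp1-/- against WT were at 1.10 and -2.13. Calls over all genes went from 141 to 1 in that comparison and from 748 to 351 in Tfam+/-Zbp1-/- against Tfam+/-. With only the genotypes compared they were 1 and 359, and in Tfam+/-Zbp1-/- against WT they rose from 183 to 5935. With 2 libraries a genotype, a change in 1 library moves most values, and Ccl28 lies too near 0 for a firm size. Ccl28 and Nim1k could not be fitted at a mean of at least 50.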
